A study of Caenorhabditis elegans with 10 samples.

Results

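Ribosome footprints of whole Caenorhabditis elegans kept for 5 days at 4°C were compared with those of the 20°C animals from which the cooling series started. The comparison spans the whole cold exposure, so each difference is the sum of all steps on the way. Both groups were synchronized N2 cultures, the wild-type strain, grown on OP50 bacteria at 20°C from the L1 larval stage to 1-day-old adults. The 20°C group was collected then, and the day 5 group was first moved to 10°C for 2 h and then held at 4°C. The labels disagree in places. One field of the 2 libraries titled as 5 days gives 3 days at 4°C, where titles, design text and column name give 5, and the same field gives 3 h at 10°C. The 5-day reading was used. Of the 10 libraries of the series, 4 belong to these groups, and 2 each were pooled into 1 deposited column, so no value below has a replicate spread or a p-value. Members of the comparison were all genes whose highest-level transcript averaged at least 1 FPKM (footprint fragments per coding kilobase, set to a common column total) over the 5 columns of the series. This kept 9945 of 19985 genes.

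Ribosome profiling sequences the stretches of mRNA that ribosomes protect from nuclease, so the footprints on a coding sequence reflect how much of that mRNA is being translated. A young adult hermaphrodite devotes much of its translation to yolk proteins made in the intestine, to the collagens of its cuticle and to the ribosome itself, while the gonad makes oocytes filled with maternal mRNAs. Cooling stiffens membranes and slows enzymes, and membrane lipid remodeling, chaperones and the clearance of damaged proteins have been tied to cold survival in nematodes. FPKM is a share of a column, so a fall of total protein synthesis in the cold cannot be seen here, and each level is set against all other genes in that column. The series has no 20°C animals of equal age, so the effect of cold cannot be told apart from that of time. In whole animals, fewer cells of a type and less RNA per cell cannot be told apart either, and mRNA levels were not analysed here.

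On day 5 cuticle collagens, yolk proteins, fatty acid desaturases and elongases and the enzymes of propionate breakdown held fewer footprints than at 20°C in most of their members, on either scale given below. Clearly higher genes were frequent among hsp-16 chaperones, bZIP stress factors and cold survival regulators on either scale, and among autophagy genes and RNA-binding proteins of the oocyte on the scale of the deposited values. Of the 9945 genes, 2347 were at least 2-fold higher on day 5 (23.6%) and 2143 at least 2-fold lower (21.5%), on the scale of log2(FPKM + 0.5). A call is named clear below where it also rested on at least 10 footprint counts over both columns and its 95% counting interval left out a ratio of 1. Of 7105 genes with enough counts, 1185 were clearly higher (16.7%) and 784 clearly lower (11%). Clear calls in the gene lists below are to be read against these shares, and calls after rescaling against the shares given with it. Where fewer members of a list had enough counts than were compared, the smaller number follows in brackets. The clear differences reached from −9.22 to 10.23 on the log2 scale, the upper end for a gene with 0 counts at 20°C. The median difference of all compared genes was 0.13.

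The columns differed in depth. The 20°C column held 675550 counts and the day 5 column 3058810, which is 4.53 times as many. For a coding sequence of 1000 nt a single count stood for 1.48 FPKM in the former and 0.327 FPKM in the latter. There were 874 compared genes with 0 counts at 20°C and 407 with 0 on day 5. For the same FPKM, a gene reaches the count minimum more easily if it is high on day 5 than if it is high at 20°C, and 64 clearly higher genes had 0 counts at 20°C against 6 clearly lower genes with 0 on day 5. Intervals cover counting error only.

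The typical difference depended on the genes taken. Its median was 0.13 over all compared genes, 0.32 over those with enough counts and 0.08 over those averaging 100 FPKM or more. The 2677 best-counted genes were those with 100 or more counts in both columns together. Genes high in the deeper day 5 column reach that number more easily, which can raise their median. In this set the median gene stood 0.53 higher on day 5 on the log2 scale, or 1.45-fold. With the day 5 column rescaled so that this median is 0, 440 genes were clearly higher (6.19%) and 1259 clearly lower (17.7%). Higher genes then made up 25.9% of the clear calls in place of 60.2%. List counts after rescaling are to be read against 6.19% and 17.7%. Among the lists described here, the medians of the lipid synthesis regulators, CCT chaperonin, ER stress sensors, ER folding genes, mitochondrial chaperones, redox enzymes, glutathione S-transferases, proteasome, elongation factors, actins and tubulins, collagen processing genes, galectins and tunicamycin genes went from above to below 0 with it, so their direction depends on the scale. With the vitellogenins left out of both totals, a setting chosen after the data were seen, each ratio moved by −0.15 on the log2 scale. The 50 genes with the most counts held 36.9% of the counts of compared genes at 20°C and 28.8% on day 5.

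**Figure D1:**
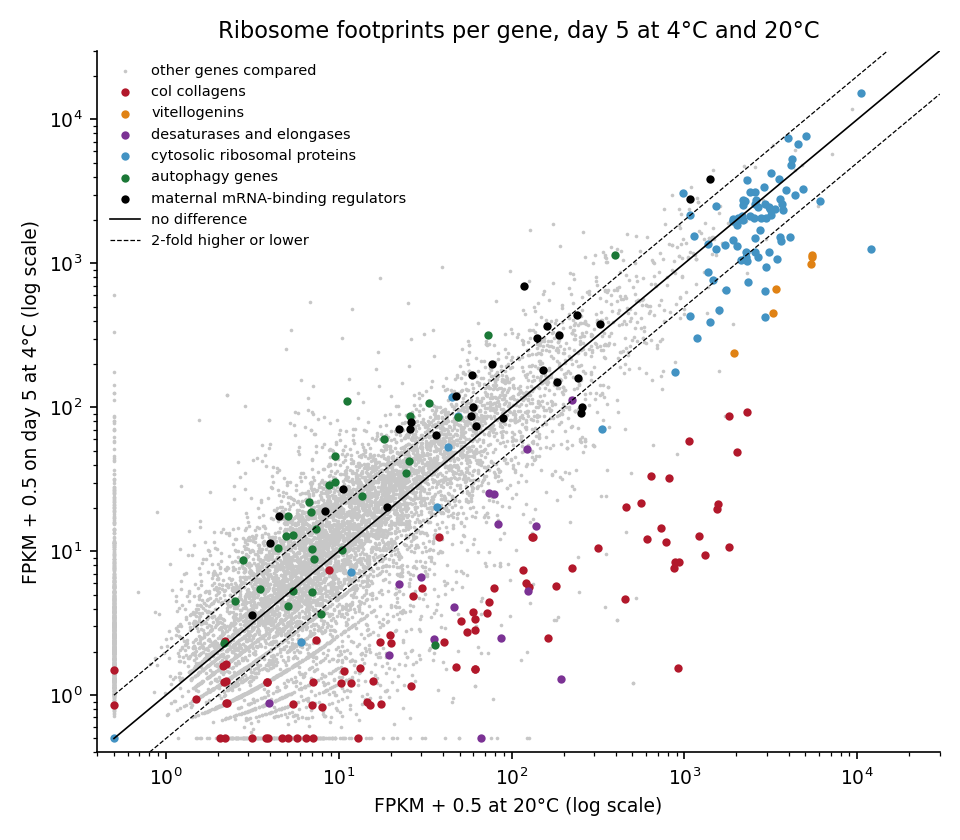
FPKM + 0.5 of each compared gene at 20°C (x axis) and on day 5 at 4°C (y axis), both on log scales, with 1 point a gene and members of 7 gene lists coloured. Dashed lines mark 2-fold differences. Vitellogenins and most col collagens sit below the lower dashed line, with col-101 at 919 FPKM at 20°C and 1.04 FPKM on day 5, whereas most autophagy genes and maternal mRNA-binding regulators sit above the line of no difference.

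The cuticle collagens of the col family, which build the outer extracellular matrix, held fewer footprints on day 5 in nearly every member. Of 86 compared members, 77 fell short of their start by 2-fold or more and 1 exceeded it as much, and 54 of the 55 with enough counts were clearly lower, none clearly higher. The median difference was −3.96, or −3.89 with genes at 0 counts set to the bound that 3 counts give, and −4.32 after rescaling. Of the counts of all compared genes they held 3.71% (Wilson 95% interval 3.66 to 3.77) at 20°C and 0.109% (0.104 to 0.114) on day 5.

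The gene col-101 (IV, 325435 to 327020, WBcel235) went over the 5 columns, in the order 20°C, 10°C and 1, 3 and 5 days at 4°C, through 919, 875, 86.8, 4.97 and 1.04 FPKM. It rested on 587 and 3 counts at 20°C and on day 5 and was 886-fold lower (95% counting interval 302 to 4308). The gene col-20 (II, 4869670 to 4870791) went through 1820.04, 1791, 170.1, 33.3 and 10.2 FPKM and was 179-fold lower (122 to 273). Its level barely differed between 20°C and 10°C and was lower at each later time. Another 3 collagens, col-92, col-93 and col-94, lie side by side on chromosome III between 10982139 and 10987873. Their levels went from 882 to 7.86 FPKM, from 1310.4 to 8.93 FPKM and from 929 to 7.86 FPKM, which is 112-fold, 147-fold and 118-fold lower. In adults col-19 (X, 421707 to 422691) marks the mature cuticle, and it stood 109-fold lower (60.2 to 222), and col-143 on chromosome V was 122-fold lower (78.8 to 198). Among the other cuticle collagens, which include the larval furrow and body-shape genes, 10 were compared, and 3 of the 3 with enough counts were clearly lower. These were sqt-3 at 4.85-fold (2.18 to 10.8), dpy-14 at 4.53-fold (1.69 to 12.1) and dpy-17 at 2.68-fold (1.24 to 5.55).

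Genes of the tissue beneath the cuticle were lower as well. Of 14 compared genes of the epidermis and its seam cells, 6 of 9 with enough counts were clearly lower and none higher (median −1.63, or −1.45 at the bound). Among them were mup-4 and mua-3, transmembrane proteins that hold the epidermis to muscle and cuticle, which went from 9.14 to 0.311 FPKM and from 2.32 to 0.103 FPKM, 29.4-fold (12.4 to 85.1) and 22.6-fold (6.4 to 122) lower. The intermediate filament gene ifb-1 was 5.61-fold lower (3.81 to 8.32). Of 11 (10) basement membrane genes 4 were clearly lower, among them both type IV collagen chains, let-2 at 4.28-fold (3.48 to 5.25) and emb-9 at 3.27-fold (2.54 to 4.2), and the perlecan gene unc-52 at 5.39-fold (3.95 to 7.36). The prolyl hydroxylase gene dpy-18, which modifies collagen chains, stood the other way and was 3.12-fold higher (1.53 to 7.4), while its partner subunit gene pdi-2 was 2.56-fold lower (2.33 to 2.81).

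Vitellogenins are the yolk proteins that the intestine secretes for uptake by growing oocytes. All 6 vit genes were clearly lower, and their summed share of counts, the largest of any list at 20°C, went through 19.2%, 17.2%, 15.6%, 11.4% and 3.89% over the 5 columns. The gene vit-2 (X, 5101042 to 5106169) went through 3243, 2766, 3153, 2279.8 and 450.3 FPKM and was 7.2-fold lower (6.98 to 7.43). It stayed near its starting level until day 1 and was lower on day 3, and most of its difference lay between day 3 and day 5. The gene vit-6 on chromosome IV went through 3371, 2935, 4126, 3087 and 659 FPKM. It was highest on day 1, and its largest drop also lay between day 3 and day 5. By contrast vit-5 (5368, 4742, 3274, 2320.1 and 992 FPKM) was lower at each step. The others were vit-1 at 8.16-fold (7.83 to 8.51), vit-3 at 4.9-fold (4.8 to 5.01) and vit-4 at 4.83-fold (4.73 to 4.94) lower. The genes vit-3, vit-4 and vit-5 are close copies of one another, so how their reads were divided among them is uncertain. A loss of footprints was not shared by every gene that handles yolk. The microsomal triglyceride transfer protein gene dsc-4, which loads lipid onto yolk lipoproteins, went from 19.9 to 0.732 FPKM and was 27.2-fold lower (11.3 to 78.9). The oocyte yolk receptor gene rme-2, named after its values were seen, was at 160.4 FPKM at 20°C and 144 on day 5, a log2 difference of −0.16.

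Enzymes that make and desaturate fatty acids were lower along the pathway, with the second ATP citrate lyase gene acly-2 as an exception at a log2 difference of 0.26. Fatty acid synthase fasn-1 went through 26.2, 21.2, 12, 15.8 and 3.67 FPKM and was 7.15-fold lower (5.44 to 9.45), and the acetyl-CoA carboxylase gene pod-2, whose coding sequence overlaps W09B6.4 so that reads may be shared, was 7.3-fold lower (4.57 to 11.8). The ATP citrate lyase gene acly-1, which supplies the acetyl-CoA, was 2.04-fold lower (1.7 to 2.44). All 9 compared elongation genes had negative differences and 7 of the 8 with enough counts were clearly lower, 8 after rescaling (median −2.16). The gene elo-6 (IV, 5386629 to 5388559), needed with elo-5 for monomethyl branched-chain fatty acids, went through 194, 175, 4.1, 1.63 and 0.793 FPKM and was 245-fold lower (66.1 to 2045). Most of that loss was already present on day 1. The gene elo-5 was 43.5-fold lower (17.4 to 139.9) and elo-2, which extends palmitate, 26-fold lower (14 to 52.8).

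All 7 desaturase genes were at least 2-fold lower, and the 5 with enough counts were clearly so. The stearoyl-CoA desaturase gene fat-6 (IV, 11913692 to 11915687), which makes oleate, went through 138, 111, 14.8, 11 and 14.4 FPKM and was 9.64-fold lower (6.51 to 14.5). Its level on days 1, 3 and 5 stayed within a narrow range, unlike that of the collagens. The palmitoyl-CoA desaturase gene fat-5 went through 45.8, 69.8, 3.38, 3.68 and 3.59 FPKM and was 12.8-fold lower (6.24 to 28.1), and fat-7 was 3.995-fold lower (1.86 to 8.5). For the omega-3 desaturase fat-1 the difference was 5.6-fold lower (3.87 to 8.14). Of the further desaturases of polyunsaturated fats, the study names fat-2, fat-3 and fat-4 for translation that appeared reduced in the cold without an mRNA drop. Their direction here cannot serve as separate support. These genes were each read from a short transcript of at most 270 nt by the rule. There fat-2 held 12 counts at 20°C and 0 on day 5, at least 18.1-fold lower, and fat-3 and fat-4 held 3 and 4 counts at 20°C and 1 each on day 5. On the transcript with the most counts, fat-2 went from 53 to 1 count and from 69.4 to 0.289 FPKM, 239.98-fold lower (41.2 to 9655). On that reading the fold loss was 58.9 (8.84 to 2502) for fat-3 and, on 23 and 6 counts, 17.4 (6.87 to 52.1) for fat-4. The regulators of lipid synthesis did not share this pattern. Of 12, among them sbp-1, mdt-15, nhr-49 and the membrane-fluidity sensor gene paqr-2, none was clearly called in either direction (median 0.08, −0.43 after rescaling).

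Synthesis of phosphatidylcholine and of its methyl donor was lower in part. Of 15 (11) genes, 5 were clearly lower and none higher (median −1.35). The phosphoethanolamine methyltransferase gene pmt-2 (V, 4628580 to 4635263) went through 244, 232, 97.4, 25.8 and 4.73 FPKM and was 51.7-fold lower (32.3 to 87.6). The gene sams-1 (X, 11965962 to 11969893), for the enzyme that makes S-adenosylmethionine, went through 105, 95, 10.2, 39.9 and 9.71 FPKM. It was higher on day 3 than on day 1 or day 5, and 10.8-fold lower (7.25 to 16.4) over the whole interval. The methylenetetrahydrofolate reductase gene mthf-1 was 3.18-fold lower (2.12 to 4.73) and the choline kinase gene ckb-2 3.91-fold lower (2.002 to 7.57).

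Fat and amino acid breakdown enzymes were lower more often than higher. Of 36 (29) genes of beta-oxidation 12 were clearly lower and 2 clearly higher (median −1.07), and of 14 (12) acyl-CoA synthetases, which activate fatty acids, 5 were clearly lower and 2 higher (median −1.17). The synthetase gene acs-5 went from 22.9 to 0.317 FPKM and was 72.4-fold lower (18.5 to 624). The hydroxyacyl-CoA dehydrogenase gene hacd-1 went through 97, 206, 1.67, 4.47 and 5.81 FPKM, so that it was higher at 10°C than at 20°C before a level near its final one was reached on day 1. In propionate breakdown, 7 of 10 genes were clearly lower. They were the 5 genes of the vitamin B12-independent shunt and the genes mce-1 and mmaa-1 of the B12-dependent route, whose carboxylase subunit genes pcca-1 and pccb-1 and mutase gene mmcm-1 had no clear call. The acyl-CoA dehydrogenase gene acdh-1 at the head of the shunt went through 351, 347, 62.5, 26.1 and 9.05 FPKM and was 38.8-fold lower (24.6 to 64.2), and hphd-1, which acts later in it, was 13.9-fold lower (11 to 17.5). The nuclear hormone receptor gene nhr-68, which activates the shunt, was 18.1-fold lower (3.61 to 175).

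Central energy metabolism was moderately lower. Of 21 citric acid cycle genes 8 were clearly lower and none higher (median −0.68), of 17 glycolysis genes 5 and none (median −0.55), and of 55 (54) genes of the respiratory chain and ATP synthase 13 and none (median −0.55). Cytochrome c cyc-2.1 went through 731, 673, 245, 154 and 164 FPKM and was 4.45-fold lower (3.57 to 5.54). The Rieske iron-sulfur subunit gene isp-1 was 3.58-fold lower (2.78 to 4.59) and the isocitrate dehydrogenase gene idh-1 6.51-fold lower (3.29 to 13.2). The value of idh-1 was read from a short transcript of 144 nt by the rule, on 23 and 16 counts at 20°C and on day 5. The glyceraldehyde-3-phosphate dehydrogenase genes gpd-2 and gpd-3, near-identical neighbours on X whose reads may be split, were 2.56-fold lower (2.22 to 2.95) and 2.3-fold lower (1.999 to 2.63).

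**Figure D2:**
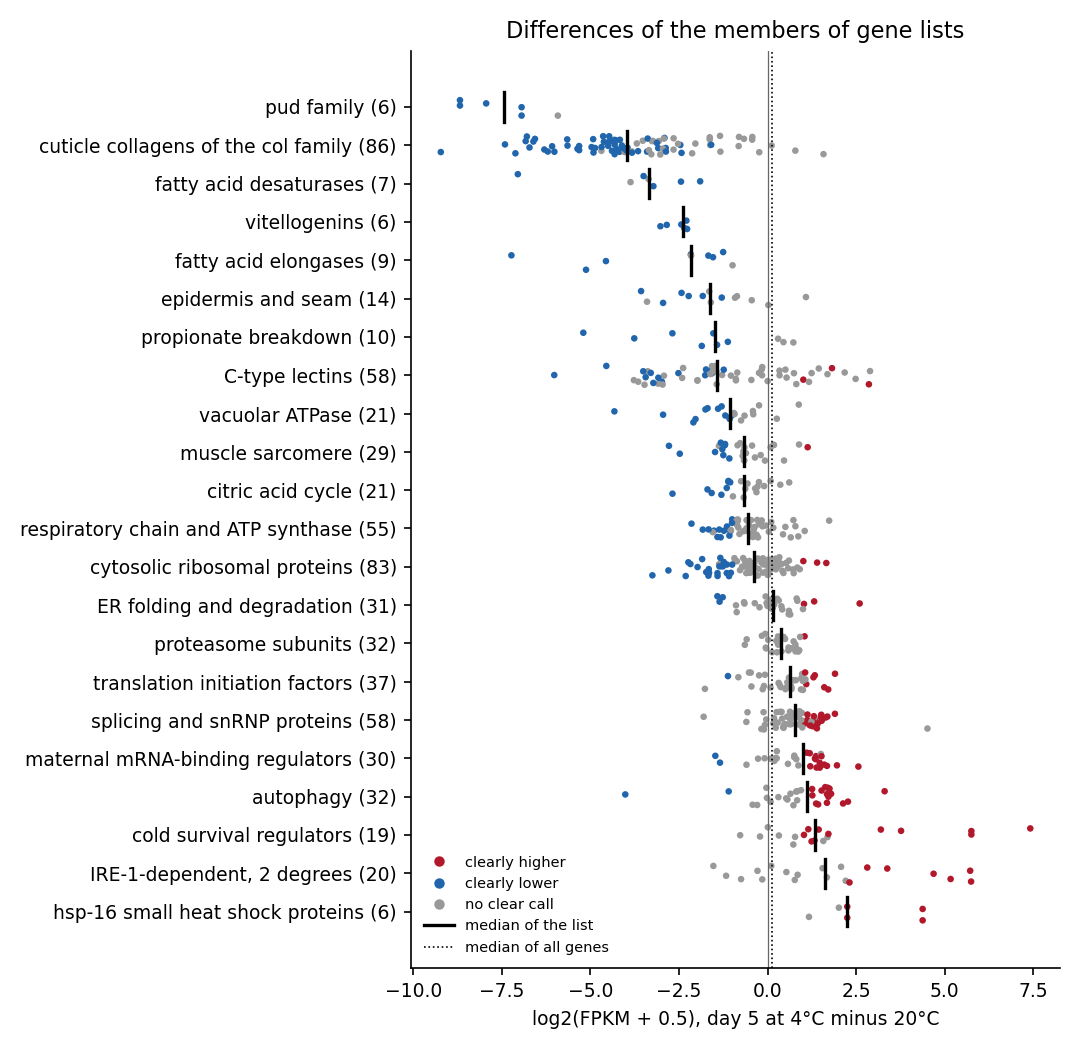
Differences between day 5 at 4°C and 20°C in log2(FPKM + 0.5) for the members of 22 gene lists, 1 point a gene, with the number of compared genes in brackets. Bars mark list medians and the dotted line the median of all genes (0.13). Blue points, clearly lower, fill the lists from the pud genes (median −7.44) to the propionate genes (−1.48), and red points, clearly higher, gather from the splicing genes (0.77) to the hsp-16 genes (2.25).

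The intestine and its secreted and digestive products showed both directions. Of 20 (18) intestinal genes 5 were clearly lower and 3 clearly higher, the transporter gene pgp-1, the microvillus gene eps-8 and the polarity gene par-6 (median −0.69). The peptide transporter gene pept-1 was 11.1-fold lower (5.34 to 24.8), the acid phosphatase gene pho-1 27.2-fold lower (6.05 to 249.9) and nrf-6, a lipid transport gene, 14.3-fold lower (5.51 to 43.9). The gut transcription factor gene elt-2 was at 2.27 FPKM on 2 counts at 20°C and 3.77 FPKM on 15 counts on day 5, with no clear call. Among lysosomal proteases 9 of 22 (19) were clearly lower and 2 higher. The aspartyl protease gene asp-13 went from 25.3 to 0 FPKM and was at least 30.2-fold lower, asp-2 was 9.06-fold lower (7.03 to 11.7) and the cathepsin B gene cpr-5 9.85-fold lower (7.86 to 12.4). The exceptions were the cathepsin L gene cpl-1, 2.43-fold higher (2.17 to 2.74), and asp-17, 14.9-fold higher (5.73 to 54.9). The vacuolar proton pump that acidifies lysosomes had 12 of its 21 subunit genes clearly lower and none higher (median −1.07), with the gut subunit vha-6 at 45.3-fold (14.1 to 232) and the epidermal vha-5 at 9.32-fold (5.08 to 17.7).

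Of 58 (29) C-type lectins, secreted proteins many of which respond to microbes, 14 were clearly lower and 3 clearly higher (median −1.44). The gene clec-1 went through 113, 102, 3.6, 3.86 and 1.25 FPKM and was 90.6-fold lower (23.5 to 773). The lysozyme gene lys-4, which lies beside lys-5 and lys-6 on chromosome IV, all 3 clearly lower, was 7.99-fold lower (5.68 to 11.3). Among genes of detoxification, 2 of 27 (9) UDP-glucuronosyltransferases and 3 of 26 (12) cytochrome P450s were clearly lower and none of either clearly higher, and of 33 (18) glutathione S-transferases 7 were clearly higher and 2 lower, or 6 and 6 after rescaling. The transferase gene gst-24 went through 2.35, 0, 196, 290.2 and 102 FPKM. On 1 and 196 counts it was 43.3-fold higher (7.68 to 1718). The P450 gene cyp-35A2 was 45.3-fold lower (6.44 to 1965).

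The pud genes, named for proteins that are abundant in daf-2 insulin receptor mutants, had the lowest median of all lists, −7.44, or −6.94 at the bound. All 6 were at least 2-fold lower and the 5 with enough counts clearly lower. The copies pud-1.1 and pud-1.2 share all their counts, as do pud-2.1 and pud-2.2, and are given as 1 each. The pud-1 pair (V, 2330429 to 2330930 for pud-1.1) went through 499.9, 438, 139, 3.68 and 0.717 FPKM and was 697-fold lower (123 to 27718). The pud-2 pair went through 407, 349, 221, 8.66 and 2.81 FPKM, and pud-3 held 43 and 0 counts, at least 64.9-fold lower. Both pairs kept a larger part of their level until day 1 than col-101 or col-20 and lost most of it by day 3. Further large losses without an assigned role were K08D12.6 on chromosome IV (124-fold lower), T13F3.6 on V (at least 64.9-fold lower) and F46F2.3 on X (at least 31.7-fold lower).

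Muscle genes were lower to a smaller degree. Of 29 (28) sarcomere genes 9 were clearly lower and 1 clearly higher (median −0.68). The body wall myosin heavy chain gene unc-54 (I, 14855901 to 14863482) went through 136, 146, 49.9, 34.8 and 19.3 FPKM and was 7.05-fold lower (6.15 to 8.09). The calponin gene cpn-3 was 5.59-fold lower (4.56 to 6.87) and the titin-like gene unc-22 4.68-fold lower (2.74 to 8.001). Most other sarcomere genes lay within 2-fold, and the cofilin gene unc-60, which severs actin filaments, was the single clearly higher gene at 2.2-fold (1.39 to 3.68).

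Ribosomal proteins were more often clearly lower than clearly higher, although their total was of similar size at 20°C and on day 5. Together they held 15.7%, 15%, 11.9%, 12.8% and 14.9% of counts over the 5 columns, lowest on day 1. Within this total, 23 of 82 genes with enough counts were clearly lower and 3 clearly higher, with a median of −0.38 and a range from −3.25 to 1.66. The lower share is above that of all genes and the higher share below it. After rescaling 37 were clearly lower and 1 clearly higher (median −0.91). The acidic stalk protein gene rla-1 went through 11935, 11774, 1702, 995 and 1251 FPKM and was 9.54-fold lower (8.92 to 10.2), while its partner rla-2 had a log2 difference of −0.28. The genes rps-12, rpl-1 and rpl-11.2 were 6.97-fold, 4.98-fold and 4.74-fold lower. The 3 clearly higher genes, picked out after their values were seen, were rpl-29 (979, 903, 1716, 2194 and 3086 FPKM), rpl-12 and rps-6, and of these rpl-29 alone stayed clearly higher after rescaling. Elongation factors also differed by member. Subunits of the eEF1B exchange factor complex, encoded by eef-1B.1 and eef-1G, were 4.999-fold lower (4.52 to 5.53) and 3.54-fold lower (3.28 to 3.82), with levels on day 1 already close to those of day 5. The genes for eEF1A and eEF2 themselves, eef-1A.1 and eef-2, went from 9295 to 11749 FPKM and from 1599 to 2488 FPKM, log2 differences of 0.34 and 0.64. Of 37 (36) initiation factors 7 were clearly higher, a share near that of all genes, and 1 clearly lower (median 0.62, 0.09 after rescaling, where 3 were clearly higher and 3 clearly lower). The eIF4E-binding repressor gene ifet-1 went through 225, 265, 379, 493 and 841 FPKM and was 3.74-fold higher (3.36 to 4.18). The calls of eif-3.I and inf-1, the eIF4A helicase gene, rested on short transcripts. On the transcript with the most counts they were 1.70-fold (1.34 to 2.19) and 1.91-fold (1.73 to 2.12) higher, under the threshold.

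**Figure D3:**
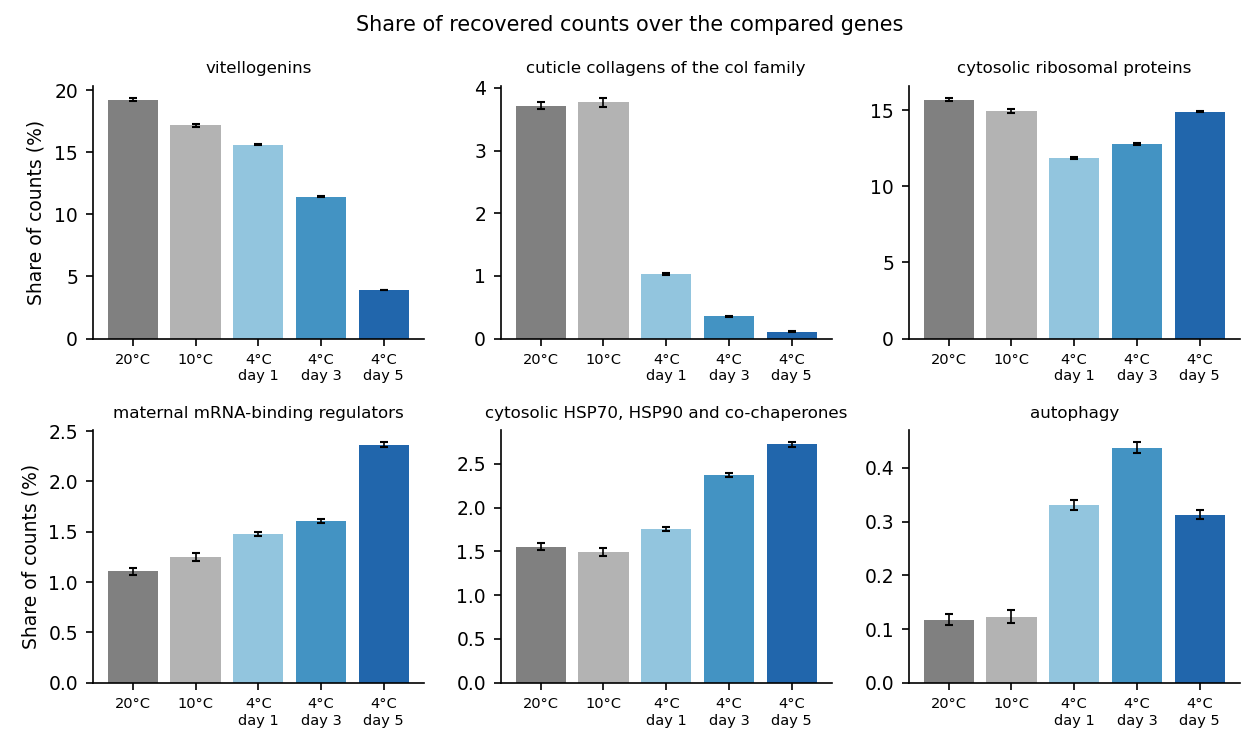
Share of the recovered counts of all compared genes held by 6 gene lists in each pooled column, in percent, with Wilson 95% intervals as error bars. The vitellogenin share went from 19.2% at 20°C to 3.89% on day 5 and the col share from 3.71% to 0.109%, while the ribosomal protein share was 15.7% and 14.9%. The autophagy share was highest on day 3.

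Ranked by log2(FPKM + 0.5), the largest clear rises were mostly genes with 0 counts at 20°C. Their rank rests on the pseudocount and is not an order of measured folds. The gene M60.7, on 1 and 349 counts, was 77.1-fold higher (13.7 to 3053) and ranked below them. First in rank was F53A9.7 (X, 8716665 to 8716922), with no assigned role, which went through 0, 15.9, 178, 619 and 599 FPKM and was at least 34.8-fold higher. It lies in a run of 5 clearly higher neighbours with kreg-1, F53A9.1, F53A9.6 and F53A9.8, and kreg-1 itself went through 0, 24.5, 157, 122 and 70.1 FPKM. Also from 0 counts, F19B10.13 on II was at least 26.1-fold higher, clx-1 on IV at least 23.3-fold higher and nspe-6 of the nspe small peptide family at least 7.07-fold higher. Other genes of this kind were C54F6.5, C08E8.3, C08E8.10 and C25F9.11 on chromosome V, K04C2.3 on III, and T23F2.4 and T23E7.6 on X, whose lower bounds ran from 2.72-fold for T23F2.4 to 6.7-fold for C08E8.3. Their day 5 levels ran from 50.9 FPKM for C25F9.11 to 126 FPKM for C54F6.5. No role is given here for these genes.

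Regulators tied to cold survival held more footprints, and none of the list was clearly lower. Of 19 such genes 11 were clearly higher, 6 after rescaling (median 1.32). The bZIP transcription factor gene zip-10 (V, 11650079 to 11650762), known for a program of cold-induced death, went through 0, 4.13, 148, 138 and 84.7 FPKM. It held 0 and 129 counts and was at least 9.5-fold higher, with its highest level on day 1. Its known target, the protease gene asp-17, went through 5.03, 6.997, 77.4, 122 and 74.8 FPKM, and isy-1, its known repressor, was 2.24-fold higher (1.31 to 4.1). The transcription factor gene pqm-1 went through 6.67, 9.27, 144, 128 and 65.2 FPKM and was 9.77-fold higher (3.75 to 36.3), and daf-16, the FOXO factor of insulin signaling, was 2.39-fold higher (1.43 to 4.27). Other stress bZIP factors followed. Of 15 (10), 6 were clearly higher, 5 after rescaling, and none lower (median 1.36, 0.97 at the bound). They included cebp-1, which the study names, with 9.25, 15, 66.6, 61.1 and 81.4 FPKM and 8.8-fold higher (3.98 to 24.2), jun-1 at 7.18-fold (1.91 to 60.5) and zip-2 at 3.38-fold (2.33 to 5.07). The study picked cebp-1 and numr-1, which is on the cold survival list, for footprints that rise in the cold. It also reports a rise of zip-10 mRNA. The direction of cebp-1, numr-1 and zip-10 here cannot serve as separate support.

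Genes of the metal response were higher in part, with 5 of 14 (11) clearly so and 1 clearly lower, or 3 and 1 after rescaling. The nuclear proteins numr-1 and numr-2 share all their counts and are given as 1, at 1.75, 2.43, 249.5, 362 and 121 FPKM. On 1 and 312 counts they were 68.9-fold higher (12.3 to 2730.3), with the peak on day 3. Their direction is not separate support, since the study picked numr-1 for its rise in the cold. Metallothionein mtl-1 went through 6.49, 9.02, 47.9, 224 and 91.8 FPKM and was 14.1-fold higher (2.45 to 567), and the ferritin gene ftn-2, which stores iron, was 2.72-fold higher (1.999 to 3.79). The superoxide dismutase gene sod-5 went from 0 to 26.2 FPKM and was at least 3.17-fold higher, but of 29 (26) redox enzymes 3 were clearly higher and 4 clearly lower, 2 and 6 after rescaling, so the list had no common direction.

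Cytosolic chaperones divided by kind. The heat-inducible HSP70 genes F44E5.4 and F44E5.5 (II, 11757107 to 11759311 for the former), which share all their counts, went through 0, 1.06, 13.2, 68.2 and 79.6 FPKM and were at least 34.7-fold higher. The constitutive HSP70 gene hsp-1, among the 10 genes with the most counts, went through 2551, 2432, 2952, 3826 and 4655 FPKM, 1.82-fold higher (1.76 to 1.89) and under the threshold. Among small heat shock proteins, which hold unfolded proteins, all 6 hsp-16 genes had positive differences and 4 of the 5 with enough counts were clearly higher, also after rescaling. The copies hsp-16.48 and hsp-16.49 share all counts, at 3.43, 4.76, 13.1, 283 and 81 FPKM, as do hsp-16.1 and hsp-16.11, at 10.1, 4.7, 7.73, 126 and 50.01 FPKM. Both pairs were highest on day 3 and rested on 1 and 3 counts at 20°C. Beside them hsp-12.6 went through 4.45, 0, 20.3, 124 and 253 FPKM, on 1 and 258 counts, and hsp-17 through 9.93, 0, 128, 658 and 303 FPKM. Of the 19 cytosolic HSP70, HSP90 and cofactor genes 8 were clearly higher and 3 lower, or 3 and 3 after rescaling. The HSP70 cofactor gene hip-1 went through 126, 136, 295, 474 and 757 FPKM and was 6.01-fold higher (4.96 to 7.35). Levels of hsf-1, which encodes the heat shock regulator, were 9.55, 6.12, 16.4, 20.6 and 24.6 FPKM. On 13 and 152 counts at 20°C and day 5 this made a 2.58-fold rise (1.47 to 4.96), under 2-fold after rescaling. The study, by contrast, picked hsf-1 for footprints that do not rise in the cold, and its text gives no day. The cause of this disagreement was not tested. The phosphatase gene pph-5 was clearly higher on a short transcript and 1.38-fold higher (0.923 to 2.14) on the transcript with the most counts. None of the 8 CCT chaperonin genes was clearly called (median 0.43, −0.10 after rescaling).

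Most of the endoplasmic reticulum (ER) stress genes that the study follows had no clear call on day 5. Of them lips-11 was picked by the study for its increase in the cold, and its direction here cannot serve as separate support. The sensor genes ire-1, pek-1 and atf-6 had log2 differences of −0.81, −0.35 and −0.69, on 10, 11 and 5 counts at 20°C and with no clear call. The gene xbp-1, whose mRNA is spliced through IRE-1, had one of 0.27, at 36, 45.2, 79.7, 49.3 and 43.5 FPKM. This level does not separate the spliced form, whose translation the study reports as increased in the cold. The BiP chaperone gene hsp-4 went through 185, 194, 549, 276 and 282 FPKM. It was highest on day 1 and 1.52-fold higher (1.26 to 1.86) on day 5. Of the other named targets, cbp-3 went through 17.3, 27.4, 100, 29.1 and 19.6 FPKM, highest on day 1. The gene C36B7.6 went through 4.09, 7.96, 9.36, 14.5 and 4.16 FPKM, highest on day 3. The genes dnj-27 and R02D3.8 had log2 differences of 0.64 and 0.36. None of these genes had a clear call, on 2 to 7 counts at 20°C. Such counts leave wide intervals, from 0.562 to 6.27 for the ratio of dnj-27 and from 0.295 to 12.2 for R02D3.8. They do not show that a level was kept. The study followed such targets by mRNA and reporter levels on days 1 and 3, so day 5 footprints do not test its result. Of 15 sensors and named targets 2 were clearly higher, the lipase-like gene lips-11 and the serpin gene srp-7, and 2 clearly lower, the ATF-6 target cht-1, 2.57-fold lower (1.43 to 4.51), and enpl-1. The gene lips-11 (II, 1108841 to 1111001) went through 0, 0, 188, 164 and 56.9 FPKM on 0 and 151 counts at 20°C and day 5 and was at least 11.1-fold higher, and lips-12 and lips-13, which lie next to it, were clearly higher as well, while lips-15 was 9.62-fold lower (3.94 to 25.8). The gene srp-7 went through 80.7, 97.2, 843, 786 and 547 FPKM and was 6.78-fold higher (5.24 to 8.92). Of 31 (30) ER folding and degradation genes 3 were clearly higher and 3 clearly lower, or 1 and 6 after rescaling. The ubiquitin ligase gene hrdl-1 was 6.79-fold higher (2.59 to 25.3), while the HSP90-like enpl-1 was 2.69-fold lower (2.23 to 3.24).

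Genes whose induction needs IRE-1 in published experiments were read from the supplement of the study. With a value in the series were 130 genes for tunicamycin, 40 for animals at 2 degrees and 167 for lipid stress. Those not compared averaged below 1 FPKM over the 5 columns. Genes high at 4°C pass that filter more easily, so the counts below lean to higher genes. Of 116 (102) compared genes that depend on IRE-1 under tunicamycin, which blocks glycosylation in the ER, 17 were clearly higher and 8 clearly lower (median 0.06, −0.41 after rescaling with 6 clearly higher and 22 clearly lower). Before rescaling the clearly higher share equals that of all genes. Of 20 (14) from animals at 2 degrees 7 were clearly higher and none clearly lower (median 1.61, 0.65 at the bound, and 6 and 1 after rescaling), for example M60.7 and F08G2.5 at 1.05, 1.46, 30.2, 56.3 and 81.1 FPKM and 5.51, 3.83, 92.5, 185 and 154 FPKM. Of 120 (69) from lipid stress 26 were clearly higher and 5 clearly lower (median 0.70, 0.09 at the bound, and 16 and 6 after rescaling). In the mitochondrial stress list, the chaperone genes hsp-6 and hsp-60 had log2 differences of 0.33 and 0.48, and the transcription factor gene atfs-1 was 3.19-fold higher (1.86 to 5.93).

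Autophagy, the delivery of cytoplasm to lysosomes, had 15 of 32 genes clearly higher and 2 clearly lower (median 1.099, 0.59 after rescaling with 5 clearly higher and 2 clearly lower). For sqst-1 (IV, 12034282 to 12036891), a receptor of autophagic cargo, the level went through 10.7, 16.8, 192, 264 and 109.6 FPKM and was 10.3-fold higher (6.19 to 18.5), with its peak on day 3. The ATG8 homolog gene lgg-1 (398, 442, 1355, 1624 and 1143 FPKM) followed the same path at a higher level and was 2.87-fold higher (2.34 to 3.56). The mitophagy receptor gene dct-1 was 5.02-fold higher (1.9 to 18.8) and allo-1, an adaptor for paternal organelles, 4.4-fold higher (3.37 to 5.84). The transcription factor gene hlh-30, which activates lysosomal and autophagy genes, was 3.35-fold higher (1.91 to 6.4). The scaffold gene epg-2 stood apart at 20.6-fold (10.6 to 43.8) lower. The polyubiquitin gene ubq-1, among the genes with the most counts, went through 758, 1023, 2444, 1843 and 2389 FPKM and was 3.15-fold higher (2.98 to 3.34), whereas of 32 proteasome subunit genes 1, pbs-1 at 2.06-fold (1.79 to 2.39), was clearly higher and none lower (median 0.39, −0.15 after rescaling).

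**Figure D4:**
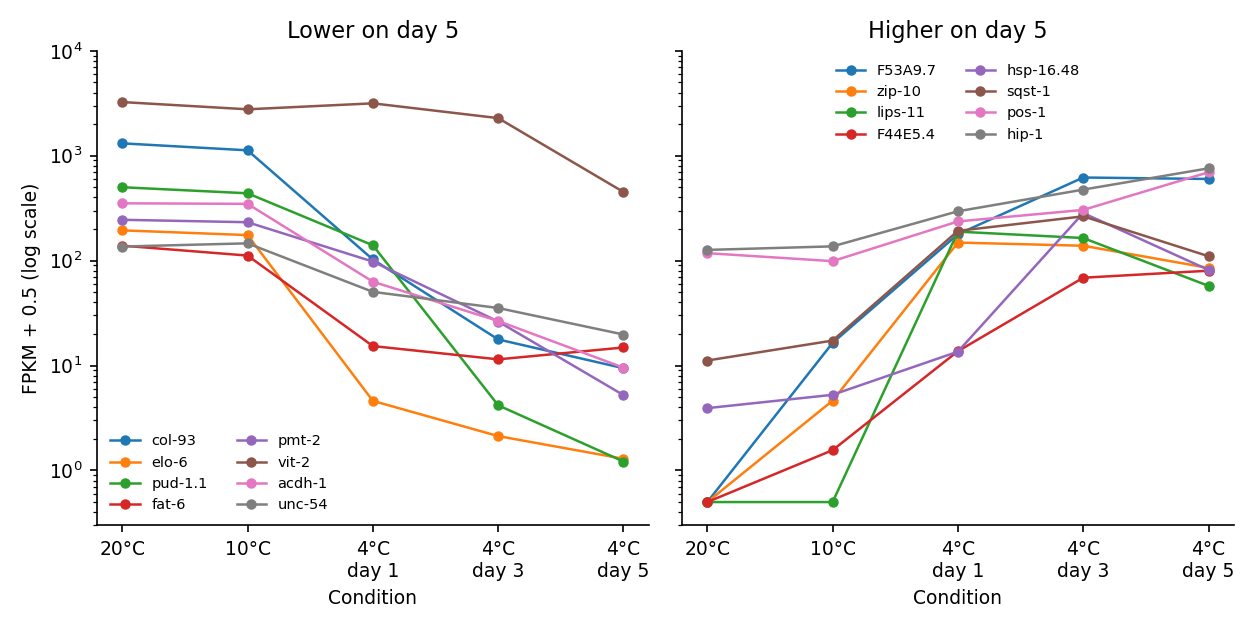
FPKM + 0.5 (log scale) of 16 genes in the 5 pooled columns, with 8 genes lower on day 5 on the left and 8 genes higher on the right, 1 line a gene. On the left elo-6 and fat-6 dropped mainly by day 1, at 138 FPKM for fat-6 at 20°C and 14.4 on day 5, whereas vit-2 dropped after day 3. On the right zip-10 and lips-11 peaked on day 1, hsp-16.48 and sqst-1 on day 3, and pos-1 and hip-1 on day 5.

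Most lists of the germ line and oocyte had more clearly higher than clearly lower members, a balance that narrowed or closed after rescaling. Of 30 RNA-binding proteins that control maternal mRNAs, 14 were clearly higher and 2 clearly lower (median 0.99, 0.45 after rescaling with 4 and 3). Their share of counts was 1.11% (Wilson 95% interval 1.07 to 1.14) at 20°C and 2.37% (2.34 to 2.39) on day 5. The zinc finger gene pos-1 (V, 8414086 to 8415254), which sets posterior cell fates in the embryo, went through 117, 98.3, 236, 304 and 695 FPKM and was 5.92-fold higher (4.6 to 7.74). The genes fbf-1, daz-1 and cpb-3 were 4.24-fold, 3.24-fold and 3.07-fold higher. The abundant RNP granule genes car-1 and cgh-1, named after their values were seen, went from 1399 to 3875 FPKM and from 1069 to 2785 FPKM. The 2 clearly lower members were the close copies puf-3 and puf-11 of the Pumilio family, at 2.55-fold and 2.79-fold lower. Of 58 (54) splicing genes 18 were clearly higher and none lower (median 0.77), though after rescaling 3 were higher and 2 lower.

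Meiosis and cell division genes had 10 of 40 clearly higher and 1 clearly lower (median 0.71, 0.20 after rescaling with 4 and 2), led by the central spindle gene cyk-4 at 4.5-fold (3.35 to 6.16). P granule and small RNA genes had 6 of 27 clearly higher and 1 lower, or 1 and 1 after rescaling, led by deps-1 at 3.86-fold (2.88 to 5.27). Eggshell genes did not share this. Of 16, 2 were clearly higher and 5 clearly lower (median −0.58). Their summed share of counts was nonetheless higher on day 5, at 1.65% (1.63 to 1.67) against 1.33% (1.29 to 1.36) at 20°C. The chitin-binding scaffold gene cbd-1 went through 357, 305, 191, 163 and 104.4 FPKM and was 3.42-fold lower (3.14 to 3.72), and dgtr-1, needed for the lipid layer of the shell, was 7.76-fold lower (2.82 to 23.3). Genes first transcribed in the embryo were mostly near the count floor. Of 14 (8), 3 were clearly lower, among them vet-6, which went from 20.5 to 0.129 FPKM, and vet-1, which went from 23.2 to 0.683 FPKM, and 2 clearly higher, sdz-8 and pal-1. Sperm genes had 4 of 65 (47) clearly higher on few counts, with msp-45 at 3 and 49 counts at 20°C and day 5 (median 0.53, 0.23 at the bound), a share below that of all genes, and none after rescaling. The number of oocytes, embryos or sperm per animal was not measured, and its part in these levels was not tested.

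Histones divided by type. Of 81 (78) compared histone genes 21 were clearly lower and 9 clearly higher. The clearly lower genes lay mainly in replication-dependent clusters on chromosome V, where 4 runs of 4 neighbours were all clearly lower. The gene his-3 there went from 204 to 34.9 FPKM and was 5.85-fold lower (3.82 to 9.02), and the identical copies his-19 and his-21 were 5.61-fold lower (3.97 to 7.94). The linker histone gene his-24 was 6.79-fold lower (3.61 to 13.1). Among the clearly higher genes were the replacement variants htz-1, the H2A.Z gene, which went from 304 to 1143 FPKM, and his-72, an H3.3 gene, which went from 843 to 2982 FPKM, both named after their values were seen, and hil-1, a linker histone, on 1 and 88 counts. Reads of identical histone copies may be split between them.

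Neuronal genes were sparse in whole animals. Of 11 (10) genes of neuropeptide processing and synaptic release 5 were clearly higher and none lower (median 1.13), or 2 and none after rescaling. The proprotein convertase gene egl-3, the carboxypeptidase gene egl-21 and the chaperone gene sbt-1, which serve the processing of neuropeptide precursors, were 3.98-fold, 3.42-fold and 3.49-fold higher, on 8, 10 and 5 counts at 20°C. Neuropeptide genes themselves gave 8 clearly higher and 3 clearly lower of 99 (53), and 27 of them had 0 counts at 20°C. This higher share is below that of all genes, and after rescaling 3 were higher and 4 lower. Their median was 1.09, but 0.14 with genes at 0 set to the bound, so most of it rests on genes without counts in the shallower column. The largest were flp-11, at 0, 0, 7.91, 19.1 and 27.5 FPKM, and, on the lower side, nlp-77, at 656, 573, 310.2, 83.9 and 54.5 FPKM. Of 17 (16) actin and tubulin genes 2 were clearly higher and 2 clearly lower, or 0 and 3 after rescaling. Tubulin genes of the germ line and general use, tba-2 and tbb-1, were 2.31-fold higher (2.15 to 2.48) and 2.5-fold higher (2.29 to 2.73). The 2 lower ones were the tubulin genes tba-4, at 2.41-fold (1.53 to 3.73), and mec-12, of the touch neurons, at 4.98-fold (1.92 to 13.1).

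The end-to-end difference was laid down unevenly along the series. For the 784 clearly lower genes, the median FPKM was 42.2 at 20°C and 41.3 at 10°C, then 21.9, 15.1 and 7.34 after 1, 3 and 5 days at 4°C. The median log2 steps were −0.11 to 10°C, −0.74 to day 1, −0.53 to day 3 and −0.69 to day 5. For 663 of them day 5 was the lowest column, and the largest drop lay between 10°C and day 1 for 313, between days 1 and 3 for 192 and between days 3 and 5 for 236. For the 1185 clearly higher genes the first day at 4°C held the largest median step, 0.76. Their median FPKM was 10.3, 13.1, 25.3, 31.2 and 36.9, and 678 had their largest increase between 10°C and day 1. Of them 851 were highest on day 5, 260 on day 3 and 72 on day 1, so the remainder had passed a higher level before. All steps share columns with their neighbours, and the steps into 4°C also cross from shallow to deep columns.

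The calls were not spread evenly over chromosomes. On X, 154 of 811 genes with enough counts were clearly lower (18.99%) and 89 clearly higher (10.97%), against 100 (7.47%) and 255 (19.04%) of 1339 on I. Chromosome V was next, with 16.52% clearly lower and 16.4% clearly higher, and III had the smallest lower share, 6.71%. The median difference of the genes on X was −0.05, where the other chromosomes lay between 0.27 and 0.43. Families in local clusters add to these shares. Of runs of at least 3 neighbouring compared genes with the same clear call, 20 were lower and held 77 genes, and 29 were higher and held 98. The longest lower run was nspc-1 to nspc-7 on X (8534672 to 8542283), small peptide genes at a median of −1.42, and 2 further runs of nspc genes and col-167 to col-170 (6323488 to 6332611) also lie on X. Other lower runs were the F-box partner genes skr-13, skr-9, skr-8 and skr-12 on IV (17162097 to 17167792), at a median of −4.08, and the higher runs included the hsp-16 pairs on V (9087293 to 9090604) and lips-11 to lips-13 on II (1108841 to 1118042). Neighbours that are near copies are not independent of each other.

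**Figure D5:**
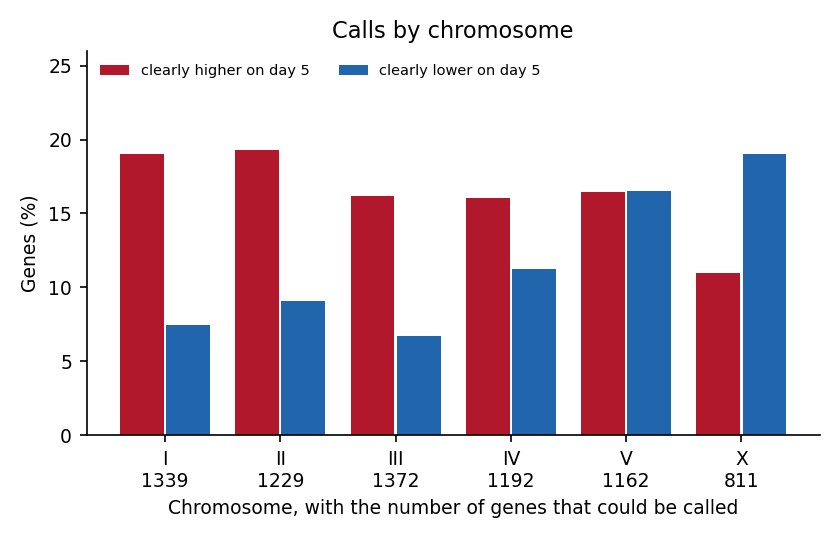
Percent of the genes with enough counts that were clearly higher (red) or clearly lower (blue) on day 5, by chromosome, with the number of such genes under each name. The lower share is largest on X (18.99%) and smallest on III (6.71%), and X is the chromosome with the smallest higher share (10.97%).

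Clearly lower genes also had shorter coding sequences. Their median coding length was 936 nt, against 1191 nt for clearly higher genes and 1089 nt for all with enough counts. By mean level over the 5 columns, 75 of 1099 genes at 1 to 5 FPKM were clearly lower (6.82%) and 46 clearly higher (4.19%), and of the 972 genes at 100 FPKM or more, 194 were clearly lower (20.0%) and 185 clearly higher (19.03%). The lower shares at low levels go with fewer counts behind each gene. At the thresholds, ada-2 and snpc-4 lay just above a 2-fold rise and sart-3 and Y87G2A.1 just below it, while C13B9.2 and rps-20 lay just past a 2-fold loss and txdc-17 and pes-9 just short of it. The genes F58B6.1 and oig-5 just passed the filter, at 1.0002 and 1.001 FPKM on average, and C23H4.8 and F11C1.7 just missed it, at 0.9983 and 0.9982.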

How the data were processed

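Ribosome-protected fragments of 10 libraries of whole N2 animals, 2 for each of 5 conditions, were profiled with the pipeline that the study's methods name ORFik. The submitters' processing notes name fastp 0.23.4 and STAR 2.7.11b and the genome build WBcel235. The deposited table holds 1 FPKM value for each transcript and condition, which the authors made by pooling the 2 libraries. Sum or mean, annotation release and strand handling were not given in the sources used here. A further 1 column matched no sample and was left unused. No mRNA values were analysed here.

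Genes were read from 31865 transcripts by matching names to Ensembl release 115. Whole footprint counts were recovered from the steps of the deposited FPKM values and coding lengths. The tolerance was 0.001 of a whole count, widened in proportion for high counts. Counts were used for intervals, shares, count minimums, bounds, the set behind the rescaling and the choice of the genes with the most counts. Between the 20°C and 10°C columns, genes with 2 to 4 counts had a mean squared standardized difference of 0.485, below the 1 that counting error gives. The difference of a gene was taken on log2(FPKM + 0.5), a fold as the ratio of FPKM with a 95% Clopper-Pearson interval, and a share of counts with a Wilson interval. Against 0 counts, a fold was taken against a floor of 3 counts and given as a bound without counting error. No test was possible with 1 pooled column a condition, and none was run. Tables were handled with pandas 2.3.3 and NumPy 2.4.6 in Python 3.11.15, intervals came from SciPy 1.17.1 and were tested on simulated data, and plots were drawn with Matplotlib 3.10.9. There were 96 compared genes that share all counts with another and 64 that overlap another coding sequence.

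The comparison and the gene lists were chosen with earlier results of these data known, and 22 names on the lists had no row. Genes were named by rule: the 15 largest clear differences in each direction that held under the other pseudocounts and the rescaling, up to 4 clear calls of each list, the genes the study names, the 10 with the most counts and 2 on each side of each threshold. Beyond it, acly-2, car-1, cgh-1, daf-16, elt-2, eps-8, fat-7, his-72, hlh-30, htz-1, isy-1, lgg-1, lys-5, lys-6, mdt-15, nhr-49, nspa-1, nspc-16, paqr-2, par-6, pgp-1, puf-3, puf-11, rla-2, rme-2, rpl-12, rpl-29, rps-6, sbp-1, unc-60, members of runs and 5 genes of propionate breakdown were named after their values were seen. Alternatives were other pseudocounts, filters, scalings, transcripts, depths, fold and count thresholds and the 10°C column as the start.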

Additional observations from a re-analysis of the deposited data

How the results depend on the processing

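The counts of genes at least 2-fold or clearly different stayed within 1.5 times of those reported with a pseudocount of 0.1 or 1, no filter on low values, another transcript for each gene, day 5 thinned to the depth of the 20°C column, at least 30 counts, 10°C as the start, or totals without vitellogenins, the last chosen after the data were seen. With a mean of at least 5 FPKM, 1034 genes were at least 2-fold lower, since fewer genes were compared. With the day 5 column rescaled, 1335 genes were at least 2-fold higher, 440 clearly higher and 1259 clearly lower. With 4-fold as the threshold, 780 were higher and 953 lower, and 309 and 397 clearly so. Of 255 named genes with a clear call, those that lost it numbered 34 under rescaling, 31 under thinning, 42 at 30 counts, 51 with 10°C as the start, 10 without vitellogenins, 4 under each other transcript choice and 1 at a pseudocount of 1. The sperm gene msp-152 turned its direction with 10°C as the start, at −0.16, and the cause was not tested. Of 26 lists with a median of at least 2-fold, 12 fell under it with no filter, 6 under rescaling, 5 under thinning, 7 with 10°C as the start, 4 without vitellogenins, 4 at a pseudocount of 1 and 3 at 5 FPKM, and none reversed. No paired analysis was possible because the replicates were pooled into 1 column for each condition, and for the same reason no replicate could be left out. At 20°C, 874 compared genes had 0 counts, so rises of low genes are bounds only.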

Other observations

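Several secreted and small protein families not described above split by member. Numbers in brackets count the members with enough counts. Of 10 compared galectins 3 were clearly higher and 2 clearly lower (median 0.09). The galectin gene lec-6 went through 349, 419.8, 1508, 1427 and 1027 FPKM and lec-2 through 154, 182, 415, 854 and 639 FPKM, while lec-9 went from 77 to 23.2 FPKM and was 3.32-fold lower (1.83 to 5.95). Of 47 (26) transthyretin-related genes 6 were clearly higher and 2 clearly lower, or 2 and 6 after rescaling, with ttr-26 at 9.5-fold (2.55 to 79.7) higher and ttr-18 at 4.15-fold (1.66 to 10.3) lower. Among cold shock domain proteins, the abundant germline gene cey-2 was 2.15-fold higher (2.02 to 2.28) and cey-1 was 2.12-fold lower (1.41 to 3.16). The nspa small peptide genes on chromosome V and the nspc genes moved in opposite directions, with nspa-1, which shares all counts with nspa-3, at 70.5, 118, 125, 214 and 274 FPKM and nspc-16 at 189.8, 152, 118, 69.9 and 32.5 FPKM. Both were named after their values were seen.

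Enzymes of sugar storage split as well. The trehalose synthase gene tps-1 went from 1.52 to 5.39 FPKM and was 3.53-fold higher (1.31 to 13.4), and the trehalase gene tre-5 went from 0 to 6.94 FPKM, whereas the trehalase genes tre-1 and tre-3 were 7.76-fold lower (2.82 to 23.3) and 11.3-fold lower (3.26 to 49.4). Adipose triglyceride lipase atgl-1, which frees stored fat, went through 7.14, 15.4, 15.7, 19.8 and 28.7 FPKM and was 4.02-fold higher (2.07 to 8.96), while the lipid droplet gene dhs-3 went through 35, 40.6, 25.2, 10.6 and 7.74 FPKM and was 4.53-fold lower (1.86 to 11). Of 74 (34) nuclear hormone receptor genes 3 were clearly higher, nhr-61, nhr-3 and nhr-70, and 1, nhr-68, clearly lower. Of 64 (17) F-box genes 1 was clearly higher and 1 clearly lower.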
